A study of Drosophila melanogaster with 8 samples.

Results

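The nuclear genes for subunits of respiratory complex I were followed in RNA that was recovered with ribosomes from Drosophila melanogaster testis. The study precipitated testis ribosomes with antibodies specific to eRpL22 or to eRpL22-like, a pair of paralogous proteins of the large ribosomal subunit, and asked which RNAs occur on ribosomes carrying each of them. All flies were wild type, were 2 to 7 days old and were reared on corn-meal food, and the groups differ only in the precipitating antibody. The labels list 4 replicate pulldowns per antibody, and neither an input RNA nor a mock precipitate. Values from 3 eRpL22 and 4 eRpL22-like libraries were used, and eRpL22 replicate 4 was not analysed here. The members are the 39 genes, of 12051 listed, whose name starts with ND-. Of these, 6 carry the name of another member with an added L ending, alone or with a digit, and are called paralogues. The other 33 are called ubiquitous, by name only, since no other tissue was measured.

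Complex I is the NADH:ubiquinone oxidoreductase of the inner mitochondrial membrane. It passes electrons from NADH through a flavin and a chain of iron-sulfur clusters to ubiquinone and pumps protons out of the matrix. A matrix arm holds the nuclear-encoded catalytic core, a membrane arm holds core subunits encoded in mitochondrial DNA, and nuclear accessory subunits surround both arms. In flies, several genes of the respiratory chain have a duplicate expressed mainly in testis, where mitochondria fuse and elongate along the growing sperm tail.

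The libraries held 15971685 to 26346787 reads in the listed genes. Values are normalized reads, in which 1 read is worth 0.747 to 1.495, depending on the library. They are not divided by transcript length, so they compare libraries for 1 gene and do not rank genes by transcript number. The testis label was met by sperm genes. The summed level of 10 germline and sperm markers was 498756 to 538081 normalized reads with eRpL22 and 390372 to 492029 with eRpL22-like, without overlap, and their part in the results below was not tested. This sum came chiefly from S-Lap1, Mst87F and dj, whose means over the 7 libraries were 154856, 122956 and 97022 normalized reads. On the log2 scale, 8 of the 10 markers were lower with eRpL22-like. The genes can and bol were higher, by 3.11 (SE 1.70) and 0.20 (SE 0.25). Of the 10, bam alone was at 0 in any library, namely eRpL22-like replicates 3 and 4. Other cells were represented too. Over the range of the 7 libraries, 5 accessory gland markers summed to 22784 to 48548, 5 muscle markers 4201 to 16817, 5 cyst and hub markers 1054 to 3002, 3 fat body markers 1161 to 2450 and 3 neuron markers 95.2 to 2736 normalized reads. Some markers of these types were at 0 in some libraries. These were zfh1 in eRpL22 replicate 2, tj in eRpL22-like replicate 2 and brp in eRpL22 replicate 2. Also at 0 were elav in 3 libraries, Lsp2 in 4 and Yp1 in 6. The fat body marker apolpp was at 1161 or more in every library. The labels do not name separate cultures behind the replicates, and p-values speak only of the spread among these libraries, part or all of which may be technical. In such bulk RNA, fewer cells of a type and less RNA per cell cannot be told apart.

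Complex I transcripts were well represented in both pulldowns, and no member passed the test between them. Without an input or mock precipitate, a level here does not show that an RNA was bound to ribosomes. Of the 39 members, 36 averaged at least 1000 normalized reads over the 7 libraries, and their median level of 3108 lay above that of 87.7% of all genes tested. The 33 ubiquitous genes took 0.518% ± 0.0360 of eRpL22 reads (SD, n = 3), against 0.558% ± 0.0337 of eRpL22-like reads (SD, n = 4). The 6 paralogues took 0.0984% ± 0.0209 (SD, n = 3) and 0.0995% ± 0.0187 (SD, n = 4). Library values of both shares overlapped between the pulldowns.

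In a limma fit to log2(normalized reads + 1) over 11174 genes with a mean of at least 10, 0 members were called at a Benjamini-Hochberg adjusted p of 0.05, against 0.0% of all genes in either direction. The members' adjusted p ran from 0.945 to 0.998. All 39 members passed the filter on low values. An unadjusted p under 0.05 was found for 2 of the 39 (5.13%), ND-B22 and ND-MLRQ, both higher with eRpL22-like, where 4.11% of all genes had one, 2.0% in that direction and 2.1% in the other. edgeR on the recovered reads also called 0 members and 0.0% of all genes, with 3 members at an unadjusted p under 0.05 (3.96% of all genes). DESeq2 on the same reads called 0 members, against 1.98% of all genes, with 4 members at an unadjusted p under 0.05 (9.78% of all genes). The authors' deposited table called 0 members, against 0.174% of all genes, and listed 4 members with an unadjusted p under 0.05 (5.53% of all genes), namely ND-24, ND-39, ND-B22 and ND-MLRQ. The log2 fold change, given throughout as eRpL22-like relative to eRpL22, was positive for 22 members and negative for 17. Its median was 0.06, beside -0.03 for all genes tested, of which 48.8% were positive. It reached 1 in size for 5 members (12.8%), where 49.6% of all genes did. These 2 shares are not matched for level. The median SE was 0.51 for members, 1.89 for all genes tested and 0.59 for genes with a mean of at least 1000. The 33 ubiquitous genes had a median of 0.09 and the 6 paralogues one of -0.03.

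**Figure D1:**
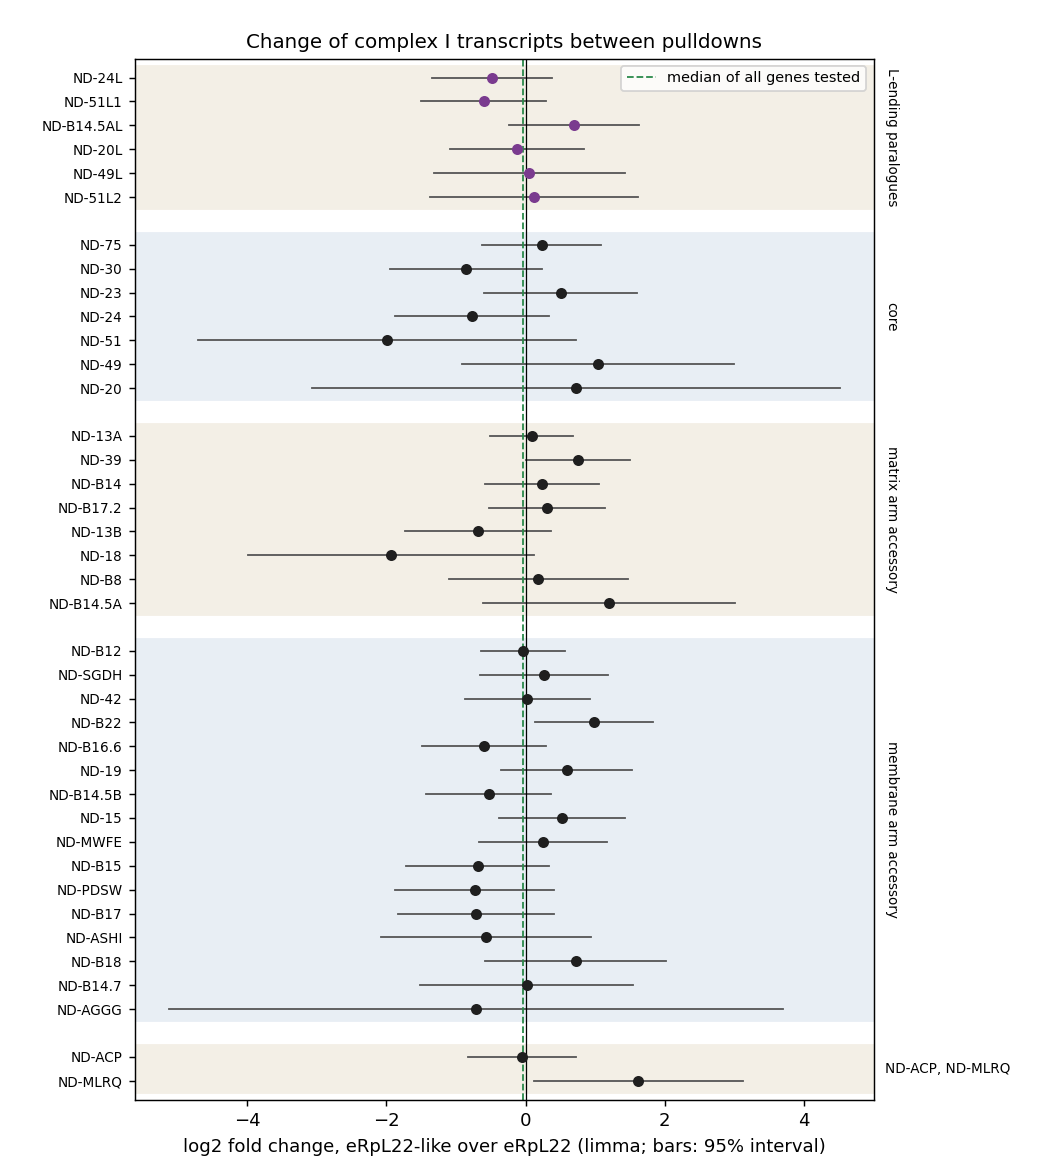
Log2 fold change, eRpL22-like relative to eRpL22, for the 39 members (x axis), with 95% intervals from limma, grouped by place in the complex. The points lie on both sides of 0 in every block of several genes, and the intervals of ND-B22 and ND-MLRQ alone stay above 0.

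Replicate libraries of 1 pulldown often differed by more than the pulldowns did, and most members were steadier than other genes. The SD between replicates on the log2 scale, pooled within pulldowns, had a median of 0.55 over the members and 2.29 over all genes tested. Much of that gap goes with level. Set beside genes of their own level, 26 members were at or below the median SD and 13 above it. The steadiest were ND-B12, at an SD of 0.14, and ND-13A, at 0.21. The most variable were ND-51 (3.50), ND-20 (3.17) and ND-18 (2.45), each with at least 1 library far below the others. Within a pulldown, 4 members (10.3%) spanned at least 10-fold between libraries, namely ND-18, ND-20, ND-51 and ND-B14.5A, as did 65.7% of all genes tested. No paralogue did. The 95% interval of the fold change stayed within 2-fold either way for ND-13A, ND-42, ND-ACP and ND-B12, or 10.3% of members, against 5.31% of all genes. For a typical member the half-width of that interval was 2.04-fold, without adjustment over genes, so smaller changes were mostly not detectable. Larger ones could miss the adjusted threshold too, as did ND-MLRQ at a ratio of means of 3.12 (limma adjusted p of 0.945).

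The read ratio of paralogues to the ubiquitous genes they are named after overlapped between pulldowns in all 6 pairs. Within the pairs, counting ND-51 once, paralogue reads made up 65.4%, 77.4% and 81.0% of the reads in eRpL22 replicates 1, 2 and 3. They made up 73.9%, 72.1%, 77.7% and 80.2% in eRpL22-like replicates 1 to 4. The eRpL22 range thus enclosed the eRpL22-like one. The means were 74.6% ± 8.18 (SD, n = 3) and 76.0% ± 3.64 (SD, n = 4). These are shares of reads, not of molecules, and how far near-identical stretches of a pair could share reads was not measured here. Two-sided exact permutation tests of the log2 read ratio in 6 pairs, whose smallest possible p is 0.0286, called 0 pairs after adjustment over the 6, with every adjusted p at 0.914. This design could hardly make a call, since 1 fully separated pair alone would have an adjusted p of 0.171 and 4 such pairs would be needed.

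ND-20 encodes the core subunit that carries the last iron-sulfur cluster before ubiquinone. The gene (FBgn0030718) was at 613, 714 and 4.76 normalized reads in eRpL22 replicates 1 to 3 and at 49.2, 1225, 49.5 and 827 in eRpL22-like replicates 1 to 4. Both pulldowns thus held libraries rich in ND-20 and libraries that nearly lacked it. The lowest value came from 6 reads, with a Poisson 95% interval of 2.20 to 13.1 reads that covers counting error only. ND-20L (FBgn0039669) was lowest in the same libraries as ND-20, namely eRpL22 replicate 3 and eRpL22-like replicates 1 and 3. Whether the genes vary together was not tested. ND-20L fell far less, spanning 2.89-fold over the 7 libraries, against 257-fold for ND-20. It was at 3587, 5847 and 2484 with eRpL22 and at 2207, 6371, 2640 and 3736 with eRpL22-like, so that no library came near absence. ND-20L had more reads than ND-20 in 7 of 7 libraries. The log2 read ratio averaged 4.78 ± 3.45 in eRpL22 libraries (SD, n = 3), against 3.93 ± 1.91 in eRpL22-like libraries (SD, n = 4), a difference of -0.85 (exact permutation p = 0.743). Without eRpL22 replicate 3 that difference was 1.14.

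ND-51 encodes the core subunit that binds NADH and the flavin, and 2 paralogues carry its name. ND-51 (FBgn0031771) was at 1094, 1907 and 1982 normalized reads with eRpL22 and at 2447, 2311, 2.80 and 1226 with eRpL22-like. The value of eRpL22-like replicate 3 rested on 3 reads, at the floor of counting, while all other libraries were above 1000 normalized reads. Its log2 fold change of -1.99 (SE 1.34) was 0.25 without that library. On the recovered reads of all 7 libraries it was -0.15 in both edgeR and DESeq2. ND-51L1 (FBgn0034251) was at 5478, 4340 and 7659 with eRpL22 and at 8437, 2900, 2109 and 3750 with eRpL22-like, with overlapping values and the lowest again in eRpL22-like replicate 3. ND-51L2 (FBgn0034007) was at 1332, 774 and 1279 and at 671, 1184, 1640 and 1563, and was highest in that same library. ND-51L1 exceeded ND-51 in reads in 7 of 7 libraries and ND-51L2 did so in 3 of 7.

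In eRpL22-like replicate 3 the reads of ND-51L1 were 752 times those of ND-51, with an exact binomial 95% interval of 257 to 3651 that covers counting error only. The log2 read ratio of ND-51L1 to ND-51 averaged 1.82 ± 0.58 in eRpL22 libraries (SD, n = 3), against 3.21 ± 3.99 in eRpL22-like libraries (SD, n = 4) (difference 1.39, exact permutation p = 0.914). That of ND-51L2 averaged -0.55 ± 0.79 (SD, n = 3) against 1.57 ± 4.88 (SD, n = 4) (difference 2.12, exact permutation p = 0.771). Both differences rested on this 1 library, without which they were -0.58 and -0.28.

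ND-24 encodes the iron-sulfur subunit that lies beside the flavin subunit. ND-24 (FBgn0030853) was at 4647, 3069 and 2056 normalized reads with eRpL22 and at 2058, 1778, 2003 and 1454 with eRpL22-like. The pulldowns met at 2056 and 2058, with every other eRpL22 library above every eRpL22-like library. Its log2 fold change was -0.77 (SE 0.54), and its mean was 1.79 times higher with eRpL22. The authors' deposited table gave it -0.84 on the log2 scale, a p of 0.0470 and an adjusted p of 0.875. ND-24L (FBgn0036706) was at 3914, 6393 and 7365 with eRpL22 and at 4794, 4067, 2085 and 6662 with eRpL22-like, with wide overlap. ND-24L had more reads than its partner in 6 of 7 libraries, the exception being eRpL22 replicate 1. The log2 read ratio was 0.88 ± 1.05 (SD, n = 3) against 1.17 ± 0.87 (SD, n = 4), a difference of 0.28 (exact permutation p = 0.657) that was -0.28 without eRpL22 replicate 1 and -0.06 without eRpL22-like replicate 4.

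ND-49 encodes a core subunit that helps form the ubiquinone site. ND-49 (FBgn0039909) was at 1314, 473 and 158 normalized reads with eRpL22 and at 2223, 538, 965 and 704 with eRpL22-like, which left a gap of 8.33-fold between eRpL22 replicates. ND-49L (FBgn0039331) stayed closer together, at 1420, 1595 and 1172 with eRpL22 and at 851, 2761, 1339 and 1365 with eRpL22-like. The paralogue had more reads in 6 of 7 libraries, and fewer in eRpL22-like replicate 1. The log2 read ratio was 1.58 ± 1.39 (SD, n = 3) against 0.60 ± 1.54 (SD, n = 4), a difference of -0.98 (exact permutation p = 0.429).

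ND-B14.5A, the remaining gene with a paralogue, encodes an accessory subunit of the matrix arm. ND-B14.5A (FBgn0025839) was at 1779, 88.7 and 1394 normalized reads with eRpL22 and at 1128, 1740, 1457 and 1278 with eRpL22-like, so that eRpL22 replicate 2 alone was low. Its log2 fold change of 1.19 (SE 0.89) was -0.19 without that library, and 0.37 in both edgeR and DESeq2 on all 7 libraries. ND-B14.5AL (FBgn0037172) was at 2130, 2428 and 3949 with eRpL22 and at 5458, 2369, 5766 and 5172 with eRpL22-like. Of the eRpL22-like libraries, 3 lay above all eRpL22 libraries and replicate 2 among them, a log2 fold change of 0.70 (SE 0.46). The paralogue had more reads in 7 of 7 libraries. The log2 read ratio was 2.17 ± 2.32 (SD, n = 3) against 1.68 ± 0.83 (SD, n = 4), a difference of -0.49 (exact permutation p = 0.857), and 0.80 without eRpL22 replicate 2.

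**Figure D2:**
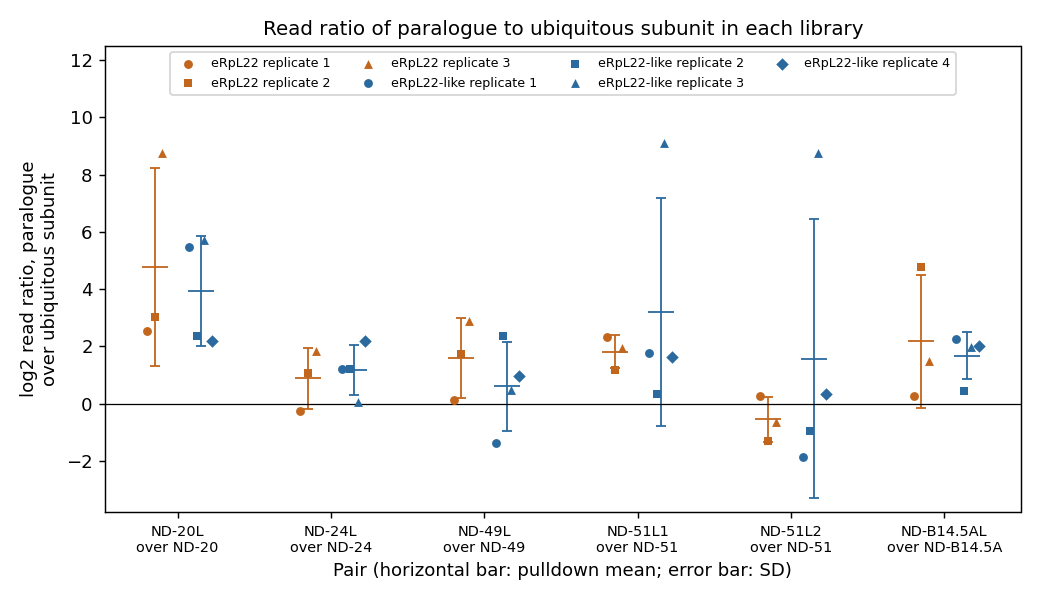
Log2 ratio of normalized reads, with 1 added to each, of each paralogue over its ubiquitous partner (y axis) in 3 eRpL22 and 4 eRpL22-like libraries; horizontal bars are pulldown means and error bars SD. Points above 0 have more paralogue reads, as in all 7 libraries for ND-20L, ND-51L1 and ND-B14.5AL, and the extreme points of ND-20 and ND-51 are the libraries with 6 and 3 reads of the ubiquitous gene.

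Among the 6 paralogues the largest gap between libraries of a pulldown was 4.00-fold, for ND-51L1 with eRpL22-like. Among the 5 partners the gap reached 873-fold for ND-51 with eRpL22-like, 150-fold for ND-20 with eRpL22 and 20.1-fold for ND-B14.5A with eRpL22, while ND-24 spanned 2.26-fold at most. This contrast was not tested. The partners had fewer reads in most pairs, where spread is larger for genes in general. Set beside genes of their own level, ND-51, ND-20 and ND-B14.5A were above the median SD, and ND-24 and ND-49 below it. Of the paralogues, ND-24L and ND-51L1 were above it and the others below. Log2 fold changes of the paralogues ran from -0.60 for ND-51L1 (SE 0.44) through -0.49 for ND-24L (SE 0.43), -0.12 for ND-20L (SE 0.47), 0.06 for ND-49L (SE 0.68) and 0.12 for ND-51L2 (SE 0.74) to 0.70 for ND-B14.5AL. Their signs were 3 positive and 3 negative. For ND-20L, ND-49L and ND-51L2 the sign changed when single libraries were left out.

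The other core subunits also overlapped between pulldowns. ND-75, which holds several of the iron-sulfur clusters of the matrix arm (FBgn0017566), was at 4108, 3211 and 3754 normalized reads with eRpL22 and at 5123, 2879, 4581 and 5081 with eRpL22-like. Of the eRpL22-like libraries, 3 were above all eRpL22 libraries, with a log2 fold change of 0.23 (SE 0.42). ND-30, a core subunit without a cofactor (FBgn0266582), was at 3803, 3199 and 3695 and at 3863, 1593, 1009 and 2380. Its eRpL22 libraries lay close together, and 3 of the 4 eRpL22-like libraries fell below them while replicate 1 lay above, giving a log2 fold change of -0.86 (SE 0.54). ND-23, another iron-sulfur subunit (FBgn0017567), was at 1226, 2729 and 2310 and at 4631, 2663, 2058 and 2442, a log2 fold change of 0.50 (SE 0.54). ND-49 had a log2 fold change of 1.04 (SE 0.96) and ND-20 one of 0.73 (SE 1.87), which was -1.56 without eRpL22 replicate 3 and -0.09 without eRpL22-like replicate 2, and which edgeR and DESeq2 put at 0.30 and 0.28. Summed over the 7 ubiquitous core genes, the eRpL22 libraries held 15356 ± 1424 normalized reads (SD, n = 3), against 14541 ± 4157 in the eRpL22-like libraries (SD, n = 4).

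**Figure D3:**
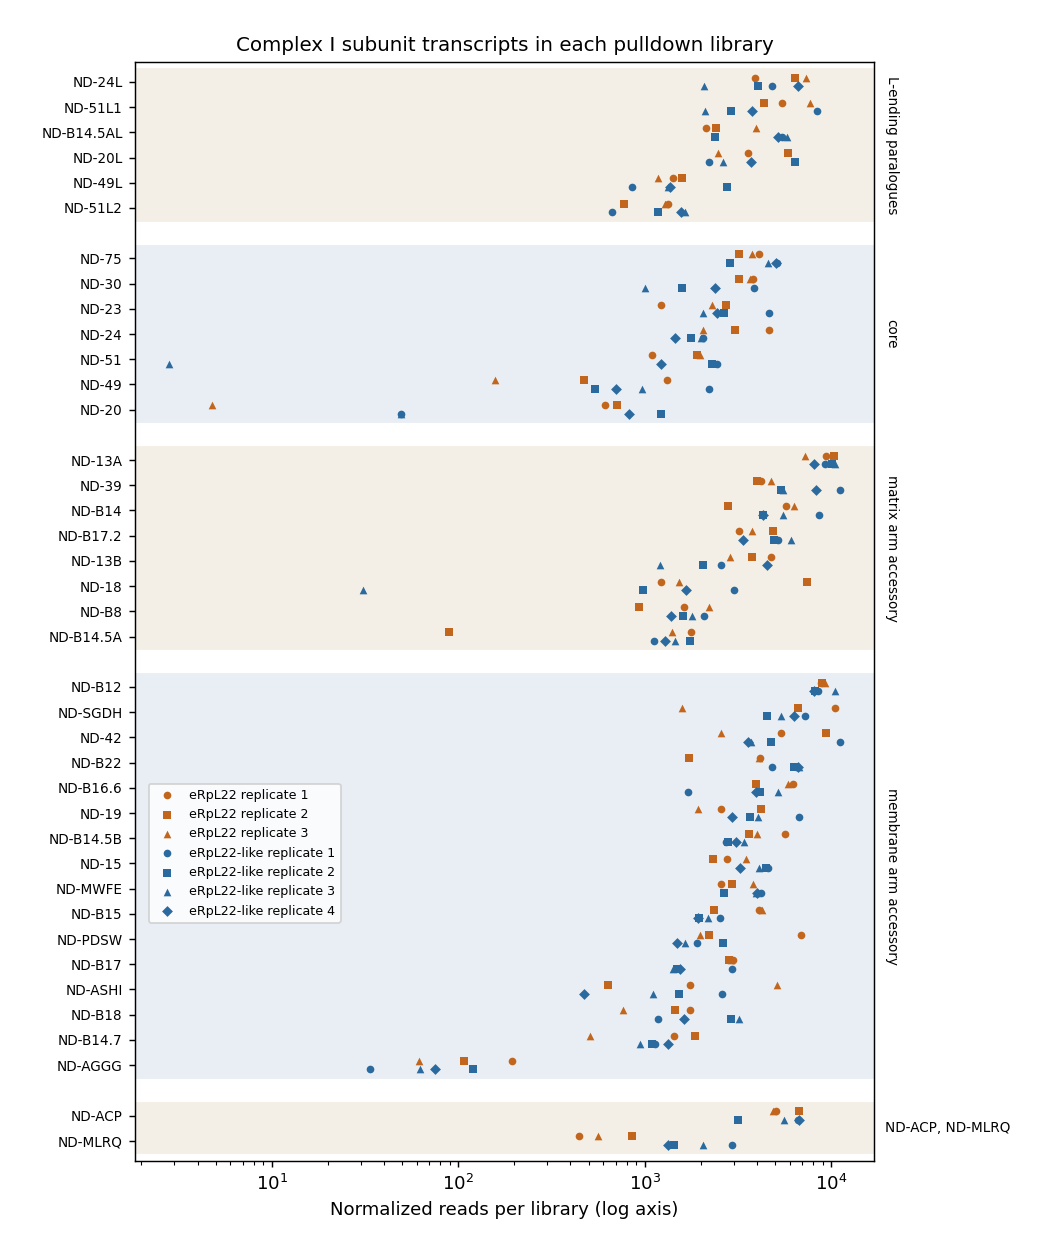
Normalized reads of the 39 members in each library (x axis, log scale), with eRpL22 libraries in orange and eRpL22-like libraries in blue, 1 symbol per replicate number. The colours are apart for ND-39, ND-B14.5B, ND-B22 and ND-MLRQ, and single points far to the left mark ND-51 and ND-18 in eRpL22-like replicate 3, ND-20 in eRpL22 replicate 3 and ND-B14.5A in eRpL22 replicate 2.

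For 4 of the 39 members (10.3%) the library values did not overlap between pulldowns, against 5.14% of all genes tested. Of the 4, 3 were higher with eRpL22-like (2.38% of all genes) and 1 was lower (2.76% of all genes). All 4 are named ubiquitous, and none passed the limma adjusted threshold. ND-MLRQ (FBgn0052230) was at 443, 858 and 565 normalized reads with eRpL22 and at 2945, 1434, 2044 and 1331 with eRpL22-like. The lowest eRpL22-like library thus stood well above the highest eRpL22 library, and the ratio of means was 3.12. The mammalian counterpart of this gene product, first described as a complex I subunit, is now placed with complex IV. Its log2 fold change was 1.62 (SE 0.74), with an unadjusted limma p of 0.0348 and an adjusted p of 0.945. DESeq2 on the recovered reads gave an adjusted p of 0.0802. The authors' deposited table gave 1.64 and an adjusted p of 0.275, the lowest of the members there. Over 15 alternative settings the unadjusted p was under 0.05 in 14, and 0.0533 without eRpL22-like replicate 1.

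ND-B22 encodes an accessory membrane-arm subunit of the LYR-motif family (FBgn0032511). It was at 4140, 1734 and 4082 normalized reads with eRpL22 and at 4826, 6319, 6767 and 6662 with eRpL22-like, with all eRpL22-like libraries higher and eRpL22 replicate 2 lowest. The log2 fold change was 0.98 (SE 0.42), with an unadjusted limma p of 0.0236 and an adjusted p of 0.945, and the ratio of means was 1.85. Without eRpL22 replicate 2 the log2 fold change was 0.57 at an unadjusted p of 0.110, and the unadjusted p was under 0.05 in 11 of 15 settings.

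ND-39, an accessory subunit of the matrix arm that binds a nicotinamide nucleotide (FBgn0037001), was at 4197, 3986 and 4759 with eRpL22 and at 11166, 5392, 5516 and 8253 with eRpL22-like. The eRpL22 libraries lay within 1.19-fold of each other, below all eRpL22-like libraries, and the ratio of means was 1.76. Its log2 fold change of 0.75 (SE 0.37) had an unadjusted limma p of 0.05003, and that p was under 0.05 in 7 of 15 settings. ND-B14.5B, an accessory subunit of the membrane arm (FBgn0031505), went the other way, at 5642, 3610 and 3996 with eRpL22 and at 2747, 2806, 3415 and 3103 with eRpL22-like. Its means were 1.46 times higher with eRpL22, with a log2 fold change of -0.53 (SE 0.44) and an unadjusted limma p of 0.242. These 4 genes stayed apart with library totals only and with TMM scaling.

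The 8 ubiquitous accessory genes of the matrix arm summed to 32031 ± 2068 normalized reads in eRpL22 libraries (SD, n = 3), against 34761 ± 5531 in eRpL22-like libraries (SD, n = 4). Of the 8, 6 had a positive log2 fold change and 2 a negative one (median 0.21). ND-13A, a zinc-binding subunit (FBgn0031684), had the highest mean of the accessory genes and was at 9380, 10341 and 7209 with eRpL22 and at 9301, 10049, 10468 and 8079 with eRpL22-like. All libraries lay close together, with a log2 fold change of 0.09 (SE 0.29) that was -0.06 without eRpL22 replicate 3. ND-18, whose mammalian counterpart is needed for a stable NADH-oxidising module (FBgn0031021), was at 1230, 7403 and 1529 and at 2999, 983, 30.8 and 1658. It was high in eRpL22 replicate 2 and nearly absent from eRpL22-like replicate 3, and its log2 fold change of -1.94 (SE 1.011) was -0.50 without the latter and -1.13 without the former. It was -1.25 in edgeR and -1.26 in DESeq2. The remaining 4 were ND-13B at 3807 ± 961 (SD, n = 3) against 2584 ± 1400 (SD, n = 4), the LYR-family ND-B14 at 4941 ± 1893 (SD, n = 3) against 5689 ± 2026 (SD, n = 4), ND-B17.2 at 3931 ± 852 (SD, n = 3) against 4899 ± 1150 (SD, n = 4), and ND-B8 at 1587 ± 642 (SD, n = 3) against 1715 ± 292 (SD, n = 4). All 4 overlapped between pulldowns.

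The 16 ubiquitous accessory genes of the membrane arm had 8 positive and 8 negative log2 fold changes (median -0.01). They summed to 58383 ± 8198 normalized reads in eRpL22 libraries (SD, n = 3), against 56355 ± 5941 in eRpL22-like libraries (SD, n = 4). ND-B12 was at 8779, 8924 and 9321 with eRpL22 and at 8480, 8182, 10497 and 8128 with eRpL22-like, within 1.06-fold and 1.29-fold of each other. ND-AGGG (FBgn0058002) had the lowest mean of all members, at 194, 107 and 61.9 and at 33.7, 119, 62.6 and 74.998. Its values overlapped and its log2 fold change of -0.71 (SE 2.17) was the least certain of the set. Subunits with paired cysteine motifs, which sit on the intermembrane-space side, gave no common direction. Of these, ND-15 was at 2869 ± 600 (SD, n = 3) against 4110 ± 626 (SD, n = 4), and ND-19 at 2905 ± 1170 (SD, n = 3) against 4349 ± 1650 (SD, n = 4). ND-B18 was at 1319 ± 502 (SD, n = 3) against 2229 ± 985 (SD, n = 4), whereas ND-PDSW was at 3701 ± 2764 (SD, n = 3) against 1926 ± 506 (SD, n = 4), the first mean resting on 6889 in eRpL22 replicate 1.

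Other membrane-arm genes had lower means with eRpL22-like. ND-B15 was at 3568 ± 1056 (SD, n = 3) against 2153 ± 290 (SD, n = 4), ND-B17 at 2893 ± 71.1 (SD, n = 3) against 1854 ± 736 (SD, n = 4), and ND-ASHI at 2493 ± 2322 (SD, n = 3) against 1424 ± 887 (SD, n = 4). ND-B16.6, whose mammalian counterpart is also known as GRIM-19, was at 5361 ± 1235 (SD, n = 3) against 3749 ± 1468 (SD, n = 4). Each of these 4 overlapped between pulldowns. ND-MWFE was at 3106 ± 629 (SD, n = 3) against 3715 ± 707 (SD, n = 4), and ND-42, a subunit with a nucleoside-kinase fold, at 5781 ± 3441 (SD, n = 3) against 5791 ± 3577 (SD, n = 4). ND-SGDH at 6251 ± 4483 (SD, n = 3) against 5872 ± 1199 (SD, n = 4) and ND-B14.7 at 1272 ± 698 (SD, n = 3) against 1129 ± 160 (SD, n = 4) had lower means with eRpL22-like but log2 fold changes of 0.27 and 0.01, with eRpL22 replicate 3 the lowest library of both. ND-ACP, the mitochondrial acyl carrier protein that is bound to both arms, was at 5567 ± 1043 (SD, n = 3) against 5534 ± 1658 (SD, n = 4).

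The highest values of the members were unevenly spread over the libraries. eRpL22-like replicate 1 held the highest value of 13 of the 39 members, against 17.4% of all genes tested, and eRpL22-like replicate 4 that of 0, against 11.2%. The lowest values ran from 2 members in eRpL22-like replicate 2 (6.24% of all genes) to 8 in eRpL22 replicate 3 (13.9% of all genes). In eRpL22-like replicate 1 the members lay a median of 0.31 above their own mean on the log2 scale. All genes tested lay 0.26 below theirs. These shares and medians are not matched for level, as the median level was 3108 for members and 413 for all genes tested.

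The core subunits that mitochondrial DNA encodes and the assembly factors did not pass either. Of the 7 mt:ND genes, 4 had a positive log2 fold change and 3 a negative one (median 0.10), with 0 calls, beside 0.0% of all genes. In each of the 7, eRpL22 replicate 1 held the highest eRpL22 value. The 7 summed to 38903, 11816 and 11668 normalized reads in eRpL22 replicates 1, 2 and 3 and to 18099 to 22775 with eRpL22-like. mt:ND1 (FBgn0013679) was at 14321, 5948 and 3580 and at 6934, 8194, 6464 and 7323, with all eRpL22-like libraries inside the eRpL22 range and a log2 fold change of 0.10 (SE 0.37) that was negative, at -0.13 and -0.14, in edgeR and DESeq2. mt:ND5 (FBgn0013684) was at 6569, 1899 and 1826 and at 4280, 3416, 4990 and 5815, also inside, with a log2 fold change of 0.68 (SE 0.47).

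Of 9 assembly factor genes, 7 had a positive log2 fold change and 2 a negative one (median 1.09, median SE 1.32), and 0 were called. CIA30 (FBgn0039689), a complex I assembly factor, was at 330, 481 and 3316 normalized reads with eRpL22 and at 2176, 1894, 4199 and 1165 with eRpL22-like, a log2 fold change of 1.39 (SE 0.75). eRpL22 replicate 3 lay among the eRpL22-like libraries. CG11722 (FBgn0037777) was at 1586, 4308 and 1789 and at 8207, 3499, 3525 and 2059, a log2 fold change of 0.72 (SE 0.52), with overlap. Subunit genes under other names are not members. NP15.6, CG9034, CG11752 and CG40472, looked up after other values were seen, overlapped between pulldowns and had unadjusted limma p-values of 0.0939 to 0.960.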

How the data were processed

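Reads of 50 bases from RNA of ribosome pulldowns were processed by the authors with Trim Galore, cutadapt, STAR and DESeq2, per the submitters' processing notes. The sources used here give no version, counter, genome build, annotation or use of strand, and no coordinates are printed. The deposited table gives the authors' log2 fold change, Wald statistic (a score), p-value and adjusted p-value, and a normalized signal per library, per the file headers. Dividing the signal by the value of 1 read in its library returned whole reads for 100% of values (relative tolerance 1e-06). No column matched eRpL22 replicate 4. All 39 member identifiers kept their symbol in a current name table. Members and lists were chosen with earlier results of these data known.

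Because the deposited unit is normalized, the test was limma 3.58.1 (R 4.3.3, trend, two-sided) on log2(normalized reads + 1) for genes with a mean of at least 10, with Benjamini-Hochberg adjustment over 11174 genes and no covariate. edgeR 4.0.16 and DESeq2 1.42.0 on recovered reads were alternatives, besides another pseudocount, filter and scaling, a replicate block and leaving out each library. Pair ratios were tested by enumeration in scipy 1.17.1. limma was tested on simulated data. The pass mark was set only at a fixed spread between libraries, not at the spread of these data, so it does not show what could be detected here. Values in every library are given for paralogues, their partners, core subunits, members with an unadjusted limma p under 0.05 or no overlap, the highest and lowest accessory genes, the 2 highest mt:ND and assembly factor genes, and ND-18 and ND-B12, which were chosen after their values were seen. Counts of non-overlap are over the same 11174 genes. The floor behind a 0 is 3 reads per library (2.24 to 4.49 normalized), for counting error only.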

Additional observations from a re-analysis of the deposited data

Results flagged for a closer look

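Within the 4 eRpL22-like libraries, 3 of the 39 members had 1 library set apart by a wide gap from the other 3. For groups of 4, chance gives such a gap in about 1 group in 20, and 3 of 39 is near that rate. The gap was taken on normalized reads, not on the log2 scale. It thus flags ND-B12, the steadiest member, and passes over the low ND-51 and ND-18 values of eRpL22-like replicate 3. ND-42 was at 11097 normalized reads in eRpL22-like replicate 1, against 3567 to 4778 in the others. ND-B17 was at 2954 in the same library, against 1422 to 1557. ND-B12 was at 10497 in eRpL22-like replicate 3, against 8128 to 8480.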

How the results depend on the processing

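No member was called under any of the 15 alternatives to limma as first run, and over all genes DESeq2 on recovered reads alone made calls, 172 against 0, the limma fit having 459 genes at an unadjusted p under 0.05. The median log2 fold change stayed between -0.06 and 0.18 for ubiquitous genes and between -0.34 and 0.20 for paralogues when libraries were left out, the lowest for paralogues without eRpL22-like replicate 2 and the highest without eRpL22-like replicate 1. Members without overlap numbered 7 with library totals only, in place of 4 (17.9%, against 4.91% of all genes), and 5 with TMM scaling (12.8%, against 5.10%). Without 1 library they numbered 5 to 9 (12.8% to 23.1%, against 8.67% to 12.4%), where fewer libraries leave less room for overlap. These overlap counts were added after seeing the data.

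Same-numbered libraries did not deviate together (r of 0.01 to 0.02 over 11174 genes), so the replicate block is only a check. With the replicate block the log2 fold change of ND-51L2 was -0.0060 (0.12 without it), and the difference for ND-24L to ND-24 was -0.060. The block gave 0 calls and 314 genes at an unadjusted p under 0.05, against 459. mt:ND1 turned to -0.13 in edgeR and -0.14 in DESeq2.

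Without single libraries, log2 fold changes ran from -0.42 to 0.20 for ND-20L, -0.26 to 0.31 for ND-49L, -0.13 to 0.40 for ND-51L2, -1.56 to 1.92 for ND-20, -2.86 to 0.25 for ND-51, -0.063 to 0.20 for ND-13A, -0.19 to 1.97 for ND-B14.5A and -0.36 to 0.64 for mt:ND1. The pair differences ran from -1.96 to 1.14 for ND-20L, -0.28 to 0.76 for ND-24L, -0.58 to 2.35 for ND-51L1, -0.28 to 3.26 for ND-51L2 and -1.45 to 0.80 for ND-B14.5AL, each over its ubiquitous partner. The other 17 log2 fold changes recomputed, and the pair difference of ND-49L, kept their sign under every alternative run. The cause of these changes was not tested. For genes near 100 normalized reads, such as ND-AGGG, changes of several fold were not detectable at this depth.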
